A study of Mus musculus with 8 samples.

Results

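Mitochondrial ribosomal proteins were followed in the livers of 4 WT mice and 4 mice lacking miR-33 in hepatocytes (HKO). The genes were taken by symbol, as every listed gene named Mrpl or Mrps followed by a number, and this gave 78 of the 17810 genes listed: 49 Mrpl genes of the large subunit and 29 Mrps genes of the small subunit. All 78 were abundant enough to be among the 12395 genes tested, and the lowest count of any of them in any liver was 45. The 78 genes lie on 17 chromosomes.

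Mitochondria keep their own ribosome, which translates the few messages of mitochondrial DNA, all of which encode core subunits of the respiratory chain and ATP synthase. Its rRNAs are made in the organelle, while its proteins are encoded in the nucleus, made in the cytosol and imported. Some of these proteins descend from those of the bacterial ribosome and others were added during the evolution of mitochondria. In hepatocytes this supply matters because β-oxidation of fatty acids depends on the respiratory chain to reoxidize its cofactors.

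WT and HKO mice were male littermates, 5 months old, and had eaten CD-HFD, a high-fat diet deficient in choline, for 3 months since the age of 8 weeks. In HKO mice, floxed miR-33 alleles were removed by Cre recombinase under the albumin promoter, a promoter active in hepatocytes. The level of miR-33 in other liver cells, bile duct cells included, was not analysed here. Whether the WT mice carried the floxed alleles is not given in the sources used here. Whole perfused livers were sequenced, with 1 library per liver and 12174339 to 18735785 counts per library, and CPM below are read counts scaled to a common library total, after TMM scaling. A level of 3 counts, taken as the lowest a library can show, was 0.149 to 0.255 CPM, and such limits cover counting error only.

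Hepatocyte markers had the highest sums of the cell type lists. Over 9 genes they reached 98938 to 130773 CPM in WT and 95658 to 148308 CPM in HKO livers. Alb alone had 62300 to 96090 CPM in WT and 47060 to 98810 CPM in HKO livers. Of the 9 genes, 5 passed edgeR's quasi-likelihood test (Benjamini-Hochberg adjusted p under 0.05) as higher in HKO livers, and none as lower. Summed markers of Kupffer cells reached 64.3 to 230 CPM, those of stellate cells 303 to 534 CPM, those of endothelial cells 74.8 to 269 CPM, those of bile duct cells 31 to 111 CPM and those of other leukocytes 0.91 to 8.57 CPM. The bile duct sum of 111 CPM was that of HKO liver 2, and the other livers had 31.0 to 53.3 CPM. HKO liver 2 also had the lowest Kupffer cell sum, 64.3 CPM. Of the bile duct and leukocyte markers, 3 of 6 and 2 of 8 had enough counts to be tested. Among these non-hepatocyte lists, Col1a1 and Col3a1, the fibrillar collagen genes, were the only markers past the threshold, and both were lower in HKO livers. In whole liver, fewer cells of a type and less RNA per cell cannot be told apart. The libraries of each genotype were numbered in 1 block, so library order and genotype cannot be told apart either.

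The mitochondrial ribosomal proteins were near their WT level in HKO livers, with 1 gene past the threshold. Mrpl16 was lower, and none was higher. This is 1.28% of the 78 genes, while 5.03% of all genes tested had an adjusted p under 0.05 by edgeR's quasi-likelihood test, 3.37% lower and 1.66% higher in HKO livers. DESeq2 called 1 of the 78 genes against 8.18% of all genes, and limma-voom called none against 4.86% of all genes, with 4 of the 78 at an unadjusted p under 0.05. An unadjusted p under 0.05 in edgeR's test was reached by 4 of the 78 genes (Mrpl16, Mrpl45, Mrpl57 and Mrps11, all lower), or 5.13%, against 19.8% of all genes tested. The 4 WT and 4 HKO values did not overlap in 4 genes, Mrpl13 on the higher side and Mrpl16, Mrpl49 and Mrps11 on the lower side, again 5.13%, against 12.5% of all genes.

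The log2 fold changes of the 78 genes (HKO over WT) had a median of -0.02 beside 0.01 for all genes tested. The middle 50% of them lay between -0.08 and 0.05, beside -0.17 and 0.16 for all genes. Of the 49 large subunit genes 19 were fitted higher and 30 lower, and of the 29 small subunit genes 14 were fitted higher and 15 lower. The median was -0.02 for the large and -0.003 for the small subunit. The changes ran from -0.35 in Mrpl16 to 0.26 in Mrpl46, with a median standard error of 0.11. For 75 of the 78 genes the 95% interval of the fold change stayed within 1.5-fold in either direction, so that a larger change of these genes lay outside their intervals. The 3 whose intervals reached further were Mrpl46, Mrpl54 and Mrps11. Such narrow intervals were found for 59.3% of all genes tested.

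**Figure D1:**
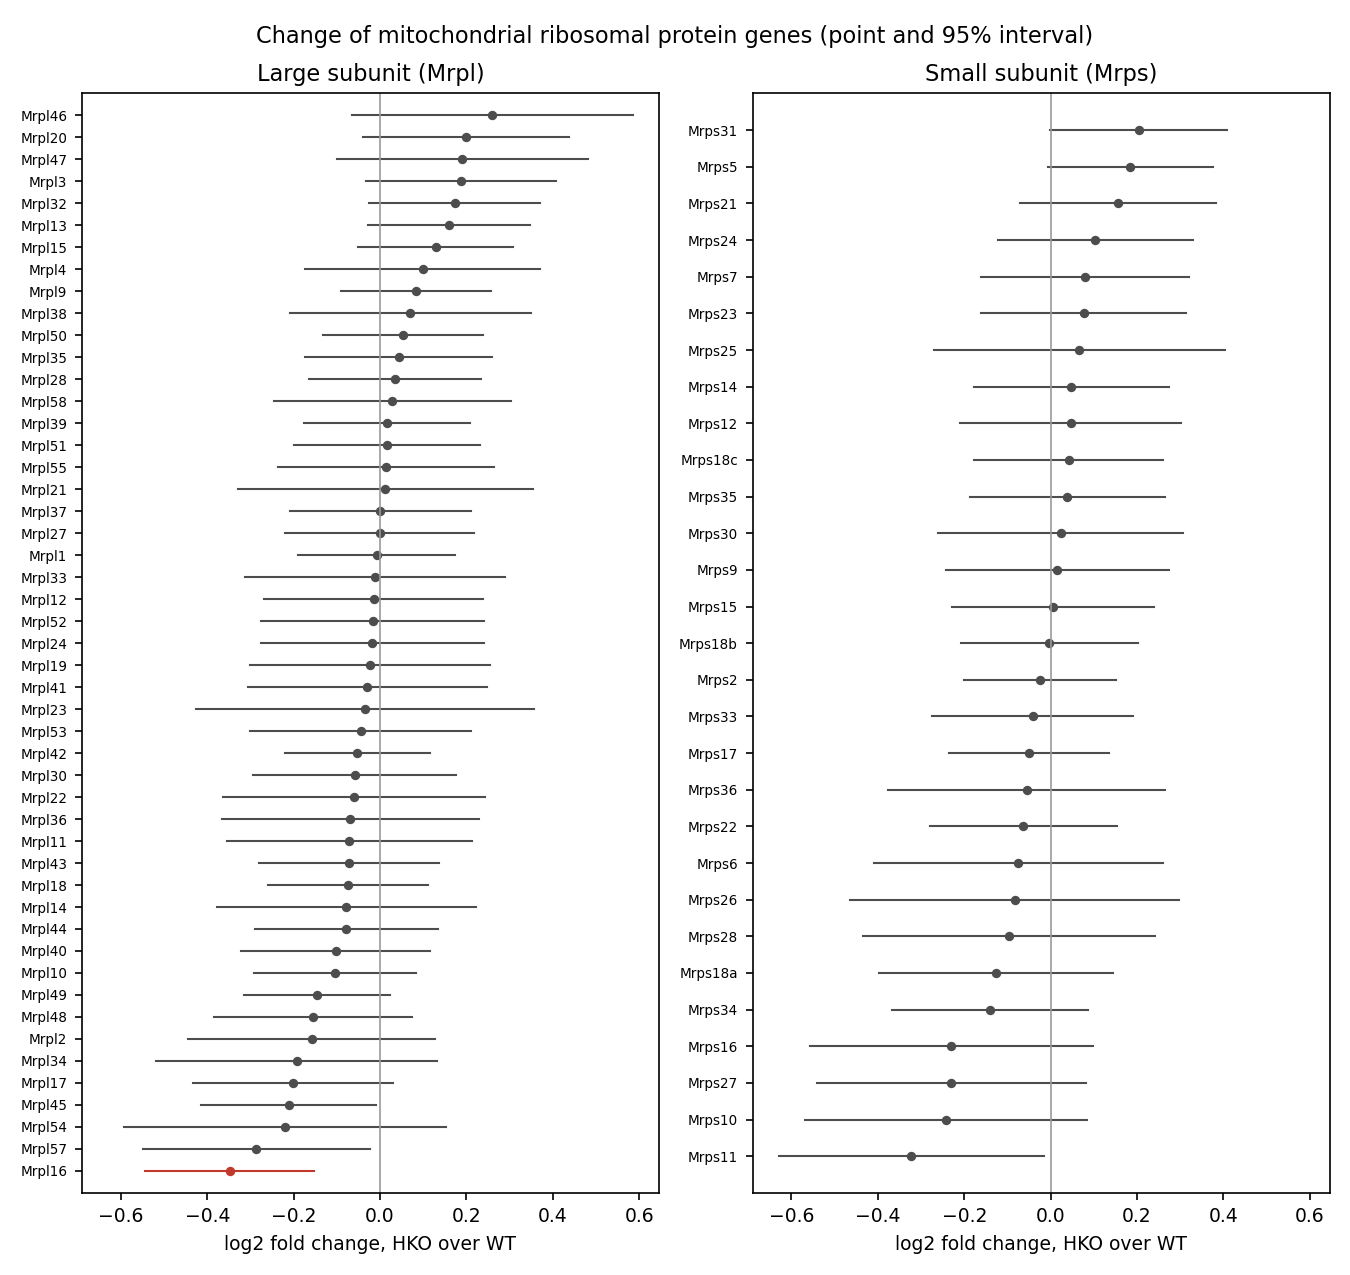
Log2 fold change of each mitochondrial ribosomal protein gene in HKO over WT livers (x axis), with points for the edgeR estimate and lines for its 95% interval, large subunit on the left and small subunit on the right. Mrpl16 (red, -0.35) is the only gene with an adjusted p under 0.05, and the others spread on both sides of 0 up to 0.26.

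Among the genes at the low end, Mrpl16 is the counterpart of bacterial L16, a protein near the tRNA sites of the large subunit. Its level was 40.8, 39.9, 35.0 and 41.3 CPM in WT livers 1 to 4 and 30.9, 28.2, 33.9 and 30.3 CPM in HKO livers 1 to 4. The lowest WT liver thus stood just above the highest HKO liver. The mean fell from 39.3 ± 2.92 to 30.8 ± 2.35 CPM (SD, n = 4 each), a log2 fold change of -0.35 with a standard error of 0.09 and an adjusted p of 0.0464 by edgeR's quasi-likelihood test. The decrease was present in each of the 8 fits that leave out 1 liver, from -0.40 to -0.31 on the log2 scale, but the adjusted p of edgeR's test stayed under 0.05 in 2 of these 8, without WT liver 3 and without HKO liver 3. In the other 6 it lay between 0.081 and 0.139.

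The promoter of Mrpl16, the gene that passed the test, is shown because the 3 words searched below, all known from genes of mitochondrial proteins, are absent from it. It lies at chr19:11770165-11770464 of GRCm38.p6 on the plus strand and runs from 250 bases before to 50 bases after the RefSeq start.
Mrpl16 promoter: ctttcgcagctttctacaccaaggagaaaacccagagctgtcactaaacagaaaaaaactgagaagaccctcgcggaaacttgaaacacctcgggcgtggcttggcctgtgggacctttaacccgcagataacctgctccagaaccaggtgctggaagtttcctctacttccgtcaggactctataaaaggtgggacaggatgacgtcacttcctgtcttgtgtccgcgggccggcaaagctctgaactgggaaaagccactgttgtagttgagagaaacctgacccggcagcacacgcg

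Mrps11, counterpart of bacterial S11 on the platform of the small subunit, stood at 8.18, 9.01, 7.56 and 7.76 CPM in WT and 5.33, 6.79, 6.48 and 7.41 CPM in HKO livers. The groups did not overlap, although the highest HKO liver came close to the lowest WT liver. The log2 fold change was -0.32 with a standard error of 0.14, and the adjusted p of edgeR's test was 0.23. Mrpl57, a protein that mitochondria added to the large subunit, had 9.92, 10.96, 8.95 and 10.3 CPM in WT and 8.17, 7.41, 8.96 and 8.34 CPM in HKO livers. Its groups met at WT liver 3 and HKO liver 3. Its log2 fold change of -0.29 had a standard error of 0.12 and an adjusted p of 0.215 by edgeR's test.

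Mrpl49, another protein without a bacterial counterpart, measured 32.3, 32.0, 30.4 and 30.8 CPM in WT and 28.1, 30.3, 27.4 and 27.5 CPM in HKO livers. HKO liver 2 and WT liver 3 were almost level, and the log2 fold change was -0.15 with a 95% interval from -0.32 to 0.02. Mrpl49 overlaps Syvn1 in the listed coordinates, and since strand-specific counting is not stated, reads of the shared stretch could belong to either gene. Mrpl45, which sits near the exit of the nascent chain and faces the inner membrane, had 32.8, 31.2, 30.8 and 28.1 CPM in WT and 25.4, 28.4, 23.8 and 28.7 CPM in HKO livers. Its 95% interval on the log2 scale ran from -0.41 to -0.01, its groups overlapped, and its adjusted p by edgeR's test was 0.23. The remaining large subunit gene at the low end, Mrpl54, had a log2 fold change of -0.22, and its values of 7.21 to 12.7 CPM in WT enclosed those of 7.10 to 9.45 CPM in HKO livers except for the lowest.

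In the small subunit the lowest estimates after Mrps11 belonged to Mrps10, Mrps27 and Mrps16. Mrps10, a counterpart of bacterial S10, had a log2 fold change of -0.24 with values of 19.6 to 25.5 CPM in WT and 15.8 to 24.7 CPM in HKO livers. Mrps27, a pentatricopeptide repeat protein, had -0.23 with 13.9 to 21.0 CPM in WT and 12.9 to 15.9 CPM in HKO livers. Mrps16, the counterpart of bacterial S16, had -0.23 with 9.996 to 15.5 CPM in WT and 9.04 to 12.2 CPM in HKO livers. In all 3 the groups overlapped and the adjusted p from edgeR's test was 0.411 to 0.441.

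At the high end, Mrpl46 had 12.8, 9.91, 8.75 and 9.14 CPM in WT and 11.5, 13.9, 12.9 and 10.2 CPM in HKO livers. WT liver 1 lay among the HKO livers, and the log2 fold change of 0.26 had a standard error of 0.15 and an adjusted p of 0.373 by edgeR's test. Mrpl13, counterpart of bacterial L13, had 30.1, 28.6, 26.1 and 30.3 CPM in WT and 31.7, 31.0, 30.9 and 35.0 CPM in HKO livers, so that every HKO liver stood above every WT liver. The distance between the groups was small, with a log2 fold change of 0.16, a 95% interval from -0.03 to 0.35 and an adjusted p of 0.335 by edgeR's test. Mrps31 had 28.8, 24.2, 28.6 and 29.2 CPM in WT and 28.6, 31.6, 33.4 and 33.9 CPM in HKO livers. HKO liver 1 was level with the WT livers, and the log2 fold change was 0.20 with an adjusted p of 0.256.

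The other high estimates were of the same size. Mrpl20, Mrpl47 and Mrpl3 of the large subunit, all with bacterial counterparts, had log2 fold changes of 0.20, 0.19 and 0.19. Mrps5, Mrps21 and Mrps24 of the small subunit had 0.18, 0.16 and 0.10. The WT and HKO values overlapped in each of these 6 genes, and their adjusted p by edgeR's test ran from 0.273 to 0.647.

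**Figure D2:**
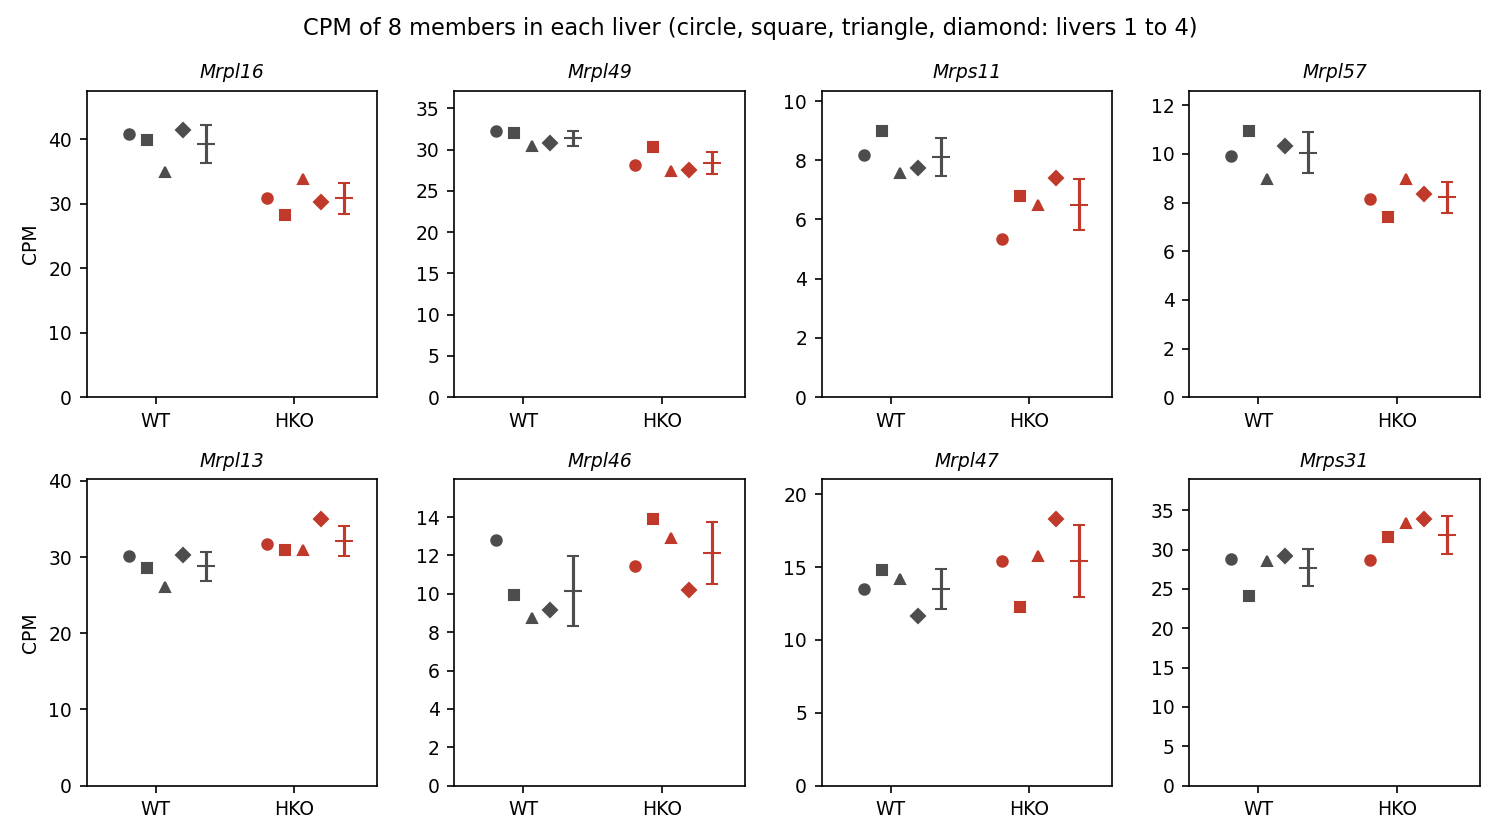
CPM of 8 mitochondrial ribosomal protein genes in each WT (grey) and HKO (red) liver, with marker shapes for liver numbers and bars for the mean ± SD of 4 livers. Mrpl16 and Mrps11 lie lower and Mrpl13 higher in every HKO liver, while in Mrpl57, Mrpl46, Mrpl47 and Mrps31 the groups overlap, and in Mrpl49 they are separated by less than 0.1 CPM.

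Members with functions beyond the framework of the ribosome were near 0 as well. Mrpl12, a stalk protein that also binds the mitochondrial RNA polymerase, had 41.4 to 57.5 CPM in WT and 43.5 to 55.1 CPM in HKO livers, and its log2 fold change was -0.01. Mrpl58, a peptidyl-tRNA hydrolase that frees stalled ribosomes, had 13.4 to 16.2 CPM in WT and 13.2 to 17.5 CPM in HKO livers, and its log2 fold change was 0.03. Mrpl44, of the ribonuclease III family, had a log2 fold change of -0.08, and Mrps12, counterpart of bacterial S12 at the decoding centre, one of 0.05. In all 4 genes the values of the genotypes overlapped.

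Some symbols do not match the place of the protein. Mrps30 and Mrps18a are named for the small subunit but are built into the large one, and their log2 fold changes were 0.02 and -0.13. The related Mrps18b and Mrps18c stay in the small subunit, with -0.003 and 0.04. Mrps36 is now known as a component of the α-ketoglutarate dehydrogenase complex, and it had 9.10 to 11.5 CPM in WT and 7.22 to 10.8 CPM in HKO livers, with a fold change of -0.06 on the log2 scale. Of the 5 proteins of the ribosome that carry other symbols, none passed the test by edgeR, DESeq2 or limma-voom, none had an unadjusted p under 0.05 in edgeR's test, and Dap3, Ptcd3, Aurkaip1 and Gadd45gip1 lay between -0.05 and 0.06. Chchd1, the fifth, had the highest log2 fold change, 0.24, with 19.8 to 25.4 CPM in WT and 23.7 to 28.9 CPM in HKO livers, and an adjusted p of 0.264. Counting proteins by their place in the particle instead of by symbol left the median log2 fold change at -0.02 for the large subunit and at 0.001 for the small subunit.

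The 46 members with a bacterial counterpart had a median log2 fold change of -0.01, and the 31 added during the evolution of mitochondria had one of -0.04. Mrpl16 was the gene called among the former, and none of the latter was called by edgeR's test.

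Levels between genes were compared as CPM per kb of an annotated transcript. The 78 genes had a median of 16.3 CPM per kb over the 8 livers, beside 5.27 for all tested genes with a known length. The large subunit had a median of 16.1 and the small subunit one of 16.8 CPM per kb. At the top stood Mrpl30 with 66.4 CPM per kb (range over livers 55.6 to 75.4), Mrps21 with 63.2 (50.6 to 73.5) and Mrpl42 with 49.4 (46.5 to 52.2). The ranges of Mrpl30 and Mrps21 overlapped widely, and that of Mrpl42 overlapped the range of Mrps21. Mrpl50 followed with 43.6 CPM per kb, and the next in the small subunit were Mrps33 with 34.1 and Mrps18c with 27.6. In the large subunit the lowest levels were those of Mrpl57 (3.17 CPM per kb) and Mrpl19 (3.64), and in the small subunit those of Mrps26 (1.49) and Mrps25 (4.04). The transcripts behind the latter are long, and for Mrps26 the ends of the annotated transcript differed from the listed ones by 3316 bases in all, so that its level per kb is a low estimate. The transcript used for Mrpl57, 2877 bases long, is longer than the listed gene, with ends 556 bases in all from the listed ones. Its level per kb is thus a low estimate too. For 45 of the 78 genes the ends of the transcript used lay within 50 bases of the listed ones.

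**Figure D3:**
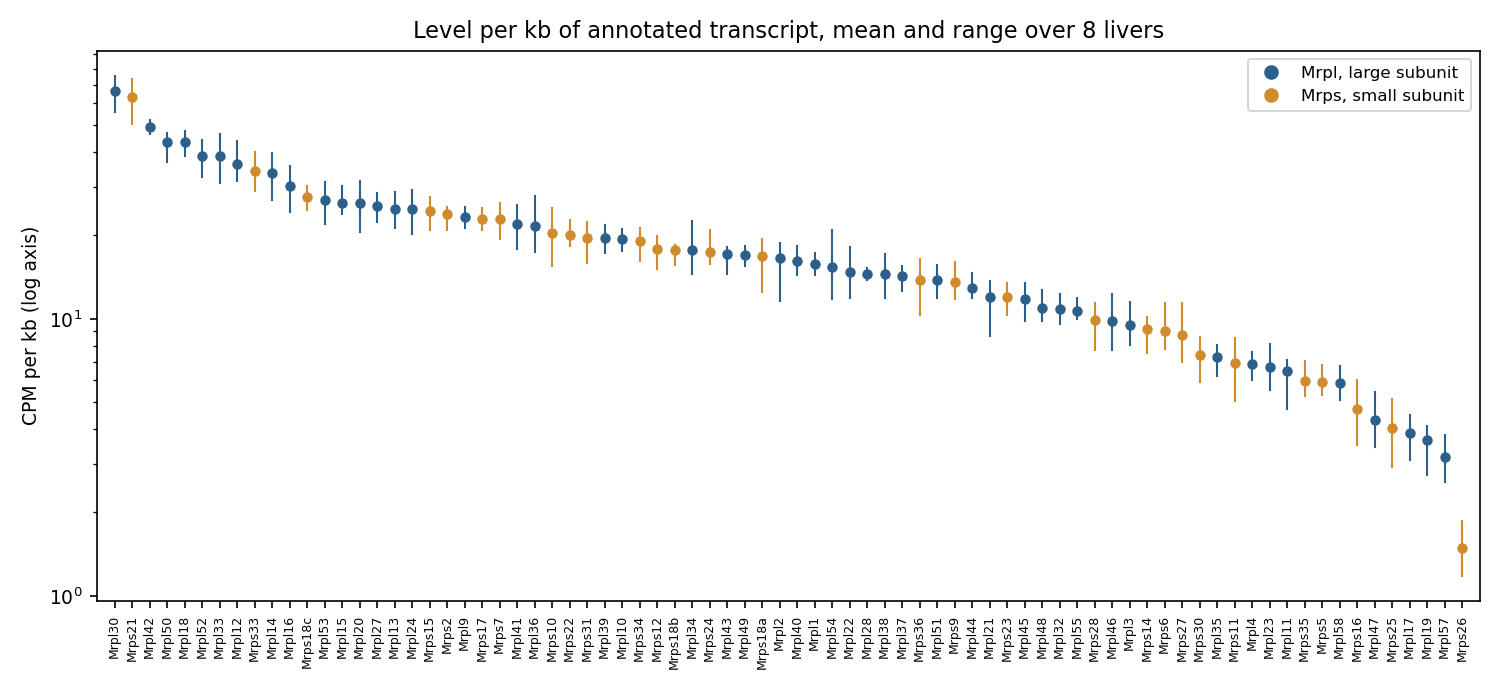
Level of each of the 78 genes per kb of annotated transcript (log y axis), as the mean (point) and range (line) over the 8 livers, in descending order. Large subunit genes (blue) and small subunit genes (orange) are mixed along the whole order, from Mrpl30 at 66.4 to Mrps26 at 1.49 CPM per kb. The levels of Mrps26 and Mrpl57 are low estimates, because of the transcript lengths used.

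In their mean level, livers of 1 genotype differed more than the genotypes did. The mean log2 CPM over the 49 large subunit genes was 4.54, 4.47, 4.34 and 4.52 in WT livers 1 to 4 and 4.33, 4.48, 4.48 and 4.48 in HKO livers 1 to 4. WT liver 3 and HKO liver 1 were low, while the other 6 livers lay close together. The genotype means differed by -0.02, beside SDs of 0.09 and 0.08. Over the 29 small subunit genes the mean log2 CPM was 4.32, 4.28, 4.12 and 4.31 in WT and 4.06, 4.29, 4.29 and 4.29 in HKO livers, again with a difference of -0.02 between the genotypes. The large subunit mean exceeded the small subunit mean by 0.19 to 0.22 log2 units in WT and by 0.18 to 0.27 in HKO livers, so the subunits moved together from liver to liver.

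WT liver 3 was the lowest of its genotype in 53 of the 78 genes (67.9%) and HKO liver 1 in 52 (66.7%), where over all genes tested the shares were 28.4% and 25.7%. Other gene sets had the same low livers. Among 79 genes of the cytosolic ribosome the shares were 88.6% and 92.4%, and among 82 nuclear genes of oxidative phosphorylation they were 87.8% and 89.0%. The summed endothelial markers were also highest of their genotype in the same livers, with 237 CPM in WT liver 3, where the rest of the WT livers had 74.8 to 115 CPM, and 269 CPM in HKO liver 1, where the rest of the HKO livers had 117 to 213 CPM. Hepatocyte markers in these livers, 103100 and 119300 CPM, lay inside the range of the others. The part of cell makeup in the low level was not tested.

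**Figure D4:**
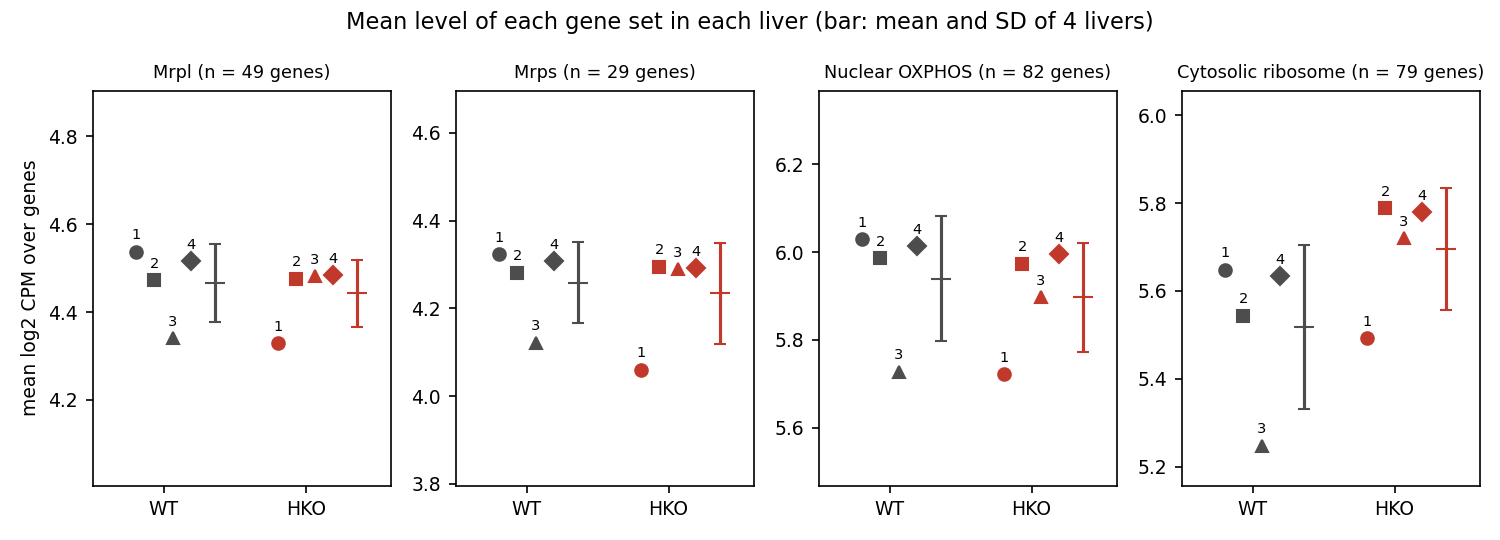
Mean log2 CPM of 4 gene sets in each WT (grey) and HKO (red) liver, with liver numbers above the points and bars for the mean ± SD of 4 livers, on y axes of equal span. WT liver 3 and HKO liver 1 are the lowest of their genotype in all 4 sets, and the cytosolic ribosome set alone has genotype means more than 0.1 apart.

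In WT liver 3 and HKO liver 1 the deviation also went with transcript length over all genes. For the 720 tested genes with transcripts under 1 kb, the median deviation from the genotype mean was -0.19 log2 units in WT liver 3 and -0.14 in HKO liver 1, and for the 3716 genes with transcripts of 4 kb or more it was 0.09 and 0.08. The mitochondrial ribosomal protein genes have short transcripts, with a median of 1252 bases beside 2981 for all tested genes. Their 25 members under 1 kb deviated by -0.17 and -0.13, the 31 from 1 to 2 kb by -0.13 and -0.12, and the 16 from 2 to 4 kb by -0.07 and -0.09. The 6 members with the longest annotated transcripts deviated by -0.19 and -0.22, where other genes of that length were above the mean. In this bin, the transcripts of Mrps5, Mrps26 and Mrps35 had ends 3047, 3316 and 3095 bases in all from the listed ones. Their lengths are thus uncertain, and so is the contrast with other genes in this bin. How far length accounts for the low livers was not tested.

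**Figure D5:**
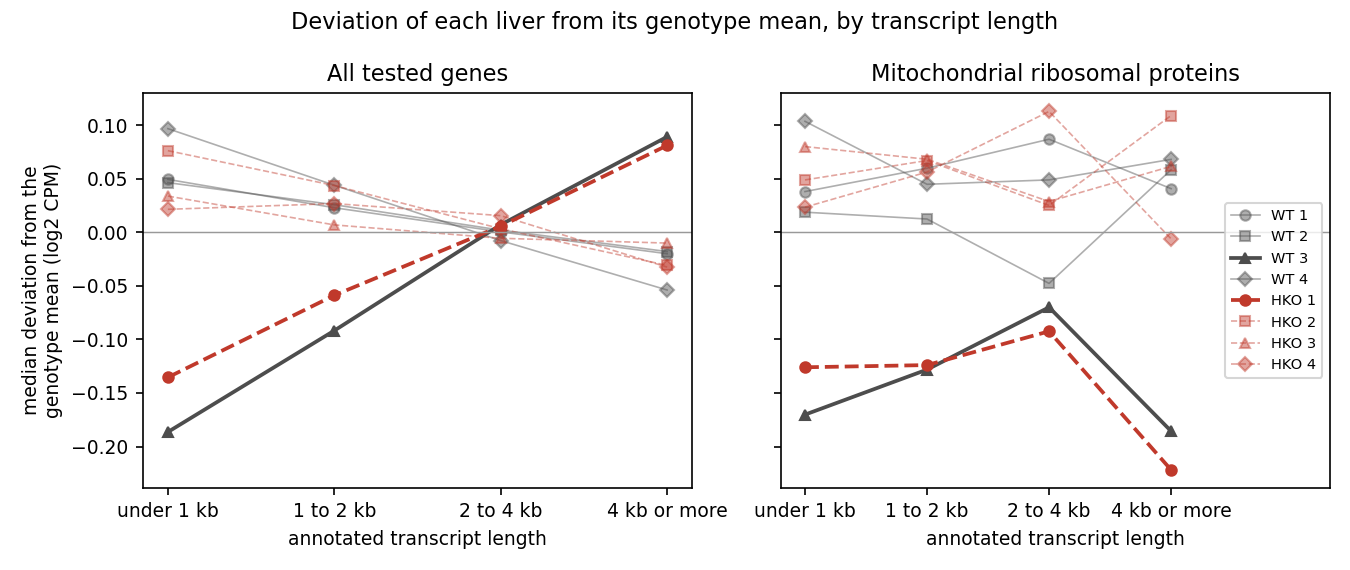
Median deviation of each liver from its genotype mean (log2 CPM, y axis) in 4 bins of annotated transcript length, for all tested genes (left) and for the mitochondrial ribosomal proteins (right). WT liver 3 and HKO liver 1 (bold) rise from -0.19 and -0.14 to 0.09 and 0.08 on the left, and stay below 0 in every bin on the right. The lengths of some members in the longest bin are uncertain.

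The members' levels went up and down together across livers, and this rested on WT liver 3 and HKO liver 1. After each gene's genotype mean was removed, the median correlation between gene pairs over the 8 livers was 0.33 within the large subunit, 0.44 within the small subunit and 0.37 between them. The correlation was 0.53 with genes of the cytosolic ribosome and 0.50 with nuclear genes of oxidative phosphorylation, and with all other genes tested it was -0.005. Without the low livers these medians were 0.009, -0.03, 0.03, 0.07 and 0.04. All pairs share the same 8 libraries and their scaling. Over the 8 livers, 52 members had a correlation above 0.5 with the mean of the other members, led by Mrps16, Mrps30 and Mrpl18 with 0.97, 0.94 and 0.94. Mrps12, Mrpl44, Mrpl47, Mrpl34 and Mrpl3 had one below 0, the lowest being -0.56 in Mrps12.

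Without WT liver 3 and HKO liver 1, a choice made after seeing the data, 37 of the 78 genes were fitted higher, and the median log2 fold change was -0.008 beside 0.01 for all genes. None passed the threshold in edgeR's test, against 3.5% of the 12240 genes tested without these livers, and 4 of the 78 had an unadjusted p under 0.05, against 19.6%. Mrpl16 then had a log2 fold change of -0.40 and an adjusted p of 0.0538 by edgeR's test.

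Genes that build and serve the mitochondrial ribosome were taken as fixed lists. Of 26 genes for rRNA modification and ribosome assembly, 1 was called by edgeR's test, against 5.03% of all genes tested. In the same test, 3 of the 26 had an unadjusted p under 0.05, against 19.8% of all genes. The gene called was Tfb1m, the methyltransferase that modifies the small subunit rRNA. It had 8.60, 7.33, 7.96 and 7.30 CPM in WT and 9.65, 11.9, 10.3 and 11.8 CPM in HKO livers. The groups did not overlap, with a log2 fold change of 0.48, a standard error of 0.12 and an adjusted p of 0.0457 by edgeR's test. The call held in 1 of 8 fits that leave out a liver, that without HKO liver 1, and with total count scaling the adjusted p of edgeR's test was 0.114. Over the 18 alternatives the adjusted p ran from 0.0247 with DESeq2 to 0.138 with edgeR's test. Of 16 genes for mitochondrial translation factors, 20 for aminoacyl-tRNA synthetases and related enzymes, 11 for mitochondrial transcription and 10 for nuclear regulators of mitochondrial genes, edgeR's test called none, with 5, 4, 0 and 1 at an unadjusted p under 0.05. The 5 of 16 translation factor genes compare with 19.8% of all genes at that level. DESeq2 called 1 of the synthetase genes, Nars2, and none of the other 3 lists, and limma-voom called none of the 4.

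Some genes of these lists had estimates beyond the range of the members, and the following were singled out after their values were seen. Mettl15 and Trub2, from the list for rRNA modification and assembly, had log2 fold changes of -0.51 and -0.49. In both, every HKO liver lay below every WT liver, with adjusted p of 0.127 and 0.0917 by edgeR's test. Nars2, the synthetase for asparagine, had 0.34, with every HKO liver above every WT liver and an adjusted p of 0.0768 by edgeR's test. Sars2, the synthetase for serine, had 0.71 at 1.41 to 2.43 CPM in WT and 1.52 to 4.01 CPM in HKO livers, and its groups overlapped. In the same list, Gatb and Iars2 had -0.33 and -0.22, inside the range of the members, with every HKO liver below every WT liver. Their adjusted p by edgeR's test were 0.0982 and 0.0956. Among the translation factors, Gfm1 and Tufm had -0.20 and -0.21, with every HKO liver below every WT liver. Mrrf had 0.20, with every HKO liver above every WT liver. The adjusted p of Gfm1, Tufm and Mrrf by edgeR's test were 0.116, 0.188 and 0.208. Over all genes tested, 12.5% had groups without overlap. Also beyond the range were Myc (-1.67), Mtg1 (-0.38), Gtpbp6 (-0.35), Qrsl1 (-0.35) and Mrm3 (0.38), each with overlapping groups.

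The median log2 fold changes were -0.03 for translation factors, -0.02 for synthetases, 0.07 for mitochondrial transcription and 0.11 for nuclear regulators. Tfam, which packages and transcribes mitochondrial DNA, had a log2 fold change of -0.12, with 61.4 to 73.3 CPM in WT and 57.8 to 64.6 CPM in HKO livers. Polrmt, the mitochondrial RNA polymerase, had one of 0.14, with 5.17 to 6.07 CPM in WT and 5.47 to 7.49 CPM in HKO livers. Ppargc1a, a coactivator of mitochondrial genes, had 19.9 to 21.7 CPM in WT and 16.4 to 34.6 CPM in HKO livers, the highest in liver 4, and a log2 fold change of 0.10 that turned to -0.19 without that liver. None of these 3 passed the test, and in each the groups overlapped.

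The respiratory chain and the cytosolic ribosome give the setting for these values. Of 82 tested nuclear genes of oxidative phosphorylation, edgeR's test called none, with 2 at an unadjusted p under 0.05, and DESeq2 and limma-voom called none either. Of these, 30 were fitted higher and 52 lower, and their median log2 fold change was -0.04. Of 79 tested genes of the cytosolic ribosome 76 were fitted higher, with a median log2 fold change of 0.17 beside 0.01 for all genes tested. None was called by edgeR, DESeq2 or limma-voom, and 16 had an unadjusted p under 0.05 in edgeR's test. These 16 of 79 genes, and the 2 of 82 above, compare with 19.8% of all genes tested at that level. With total count scaling 62 of these 79 were fitted higher and the median was 0.09, while that of all genes tested shifted to -0.08 and that of the mitochondrial ribosomal proteins to -0.10. Many genes of the cytosolic ribosome have near-identical processed copies among which reads can be split. Whether the ribosomes of the cytosol and of mitochondria differed in their response was not tested.

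Many members share a start region with another gene. In 28 of the 78 genes the start lay head to head within 1 kb of a listed gene's start on the other strand, in 27 such pairs. In 23 pairs the partner of the pair was tested, and 9 of these had fold changes of the same sign in both genes. No partner was called by edgeR's test. The 1 pair with members on both sides is Mrpl46 and Mrps11 on chromosome 7, with 41 bases between the listed starts. These genes were at opposite ends of the range, with log2 fold changes of 0.26 and -0.32, a pair singled out after its values were seen. The log2 ratio of Mrpl46 to Mrps11 in CPM was 0.62, 0.13, 0.20 and 0.22 in WT and 1.04, 0.98, 0.94 and 0.44 in HKO livers. WT liver 1 exceeded HKO liver 4, so the groups overlapped.

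Their common start region is shown from the Mrps11 side, chr7:78782881-78783180 of GRCm38.p6 on the plus strand. A YY1 word on the opposite strand is in capitals, upstream of the RefSeq start of Mrps11. It does not lie between the 2 starts but inside the listed Mrpl46 gene, which starts at 78783089 on the minus strand. The Mrpl46 promoter window, chr7:78783040-78783339, does not hold this word.
Mrps11 promoter: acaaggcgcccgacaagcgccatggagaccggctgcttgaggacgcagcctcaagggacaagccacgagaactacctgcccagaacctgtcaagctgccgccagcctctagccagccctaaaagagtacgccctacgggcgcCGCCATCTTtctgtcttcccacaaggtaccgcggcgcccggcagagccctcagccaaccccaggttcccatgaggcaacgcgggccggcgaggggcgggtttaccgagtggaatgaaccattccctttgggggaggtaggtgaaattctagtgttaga

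Promoters of 69 members were found among the RefSeq promoters of GRCm38.p6, each 300 bases long. They were searched on both strands for GCGCANGCG, the core word of nuclear respiratory factor NRF1, for CCGGAAG, a word of the ETS family that includes the GABP factor, and for AAGATGGCG, a word of YY1. Each word was counted whether or not it overlapped another, and a match is a description of letters, not of binding. The NRF1 word was present in 23.2% of the members' promoters beside 15.2% of those of 9921 tested genes, the ETS word in 26 of 69 (37.7%) beside 1985 of 9921 genes and the YY1 word in 11.6% beside 3.64%. At least 1 of the 3 was found for 42 members, or 60.9%, beside 33.8% of the tested genes. Nuclear genes of oxidative phosphorylation had 54.5% and those of the cytosolic ribosome 56.9%. Mrps16, the member whose level followed that of the others most closely over the 8 livers, holds the ETS word at 2 places. Next in that order, Mrps30 holds none of the 3 words and Mrpl18 holds the ETS word. Whether the words go with shared movement across livers was not tested. The ETS word of Mrps16 is in capitals below as its reverse complement CTTCCGG. The window shown is chr14:20393441-20393740 on the minus strand, from 1 of the 2 RefSeq starts of Mrps16. The window of the other start, chr14:20393585-20393884, holds no ETS word.
Mrps16 promoter: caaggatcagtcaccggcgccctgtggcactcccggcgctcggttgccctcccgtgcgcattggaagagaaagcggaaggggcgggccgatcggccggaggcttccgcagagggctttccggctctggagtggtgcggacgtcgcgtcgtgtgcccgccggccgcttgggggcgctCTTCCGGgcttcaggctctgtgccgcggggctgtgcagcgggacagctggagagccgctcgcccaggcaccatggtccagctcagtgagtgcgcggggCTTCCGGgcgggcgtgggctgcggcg

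Matches to miR-33 were counted because its loss is the difference between the genotypes. A miRNA lowers its targets by pairing of bases 2 to 8, the seed, with the 3′UTR, and targets would carry the complement. The RefSeq sequence of the mature arm, chr15:82198127-82198147 on the plus strand of GRCm38.p6, has its seed in capitals.
miR-33-5p: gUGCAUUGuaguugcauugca

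The search took 7-base matches of 2 kinds. CAATGCA is the complement of bases 2 to 8, while AATGCAA complements bases 2 to 7 only and ends in A. Of 77 members with an annotated 3′UTR, 5 (6.49%) held either word, beside 16.2% of 11529 tested genes. The members' 3′UTRs are short, with a median of 390 bases against 1214 bases, and the shares were not adjusted for this. The matching sites are shown with the 7 bases in capitals, since these are the members that held either word. The sites of Mrpl47 and Mrpl49 hold AATGCAA, the word with the shorter pairing.
Mrpl9: gctagaaaCAATGCAtcctagac
Mrpl32: gtgaatttCAATGCAcctcagtc
Mrpl47, first site: cttaatgtAATGCAAatgtaatg
Mrpl47, second site: gtatttttAATGCAAtatttaag
Mrpl49: caatcattAATGCAAgtttttat
Mrps25: acagacaaCAATGCAgattctcc

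In these genes the log2 fold changes were 0.08 for Mrpl9, 0.17 for Mrpl32, 0.19 for Mrpl47, -0.15 for Mrpl49 and 0.07 for Mrps25, so 4 of the 5 were fitted higher and 1 lower, and none passed the threshold in edgeR's test. Over all tested genes the median log2 fold change was 0.019 with a match and 0.01 without. The site of Mrpl9 is in a longer transcript than the one that best matched the listed gene. The transcripts used for Mrpl32 and Mrpl47 had ends 2245 and 2492 bases in all from the listed ones. Whether their sites lie within the counted genes is therefore uncertain. Mrpl16 and Mrps11 had no such match.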

How the data were processed

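RNA-Seq of 4 WT and 4 HKO livers was used. Per the labels and headers, the authors aligned reads with STAR and deposited estimated counts per gene from Partek's expectation-maximization quantification, without normalization and on GRCm38. Versions are not given in the sources used here. This method splits reads between genes, and 9 of the 78 members had fractional values. Library type is uncertain, since a small RNA kit and rRNA depletion are both named, and strandedness is not stated. Replicates are separate livers.

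Estimated counts were rounded and tested with edgeR 4.0.16 in R 4.3.3 (TMM, filter with a minimum count of 10, robust quasi-likelihood test, Benjamini-Hochberg adjustment over 12395 genes, threshold 0.05). Mean log2 CPM used a prior count of 2. The same counts were fitted with DESeq2 1.42.0 and limma 3.58.1 (voom), other scalings and filters, the replicate number as a block and leaving out livers. The scripts were tested on simulated data. Lengths and 3′UTRs came from GENCODE M21, using the protein-coding transcript whose ends were nearest the listed gene for lengths and the longest annotated 3′UTR for matches. Of the 78 members all matched RefSeq symbols, and 66 had the same start or end. Plots used Python 3.11.15 and matplotlib 3.10.9.

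Members and lists were chosen with earlier results of these data known. Named were members past the threshold or without overlap, the 4 highest and 4 lowest changes and the 3 highest and 2 lowest levels per kb of each subunit, members with known roles, proteins under other symbols, list genes past the threshold, and Ppargc1a, Tfam and Polrmt. Genes of mitochondrial DNA and Mir33 were not analysed here.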

Additional observations from a re-analysis of the deposited data

Results flagged for a closer look

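Among 94 groups of 4 livers, covering the named genes and the set means, 9 had 1 liver far from the other 3 by Dixon's test at 95%, and chance gives about 5. In HKO liver 1 the mean log2 CPM was 4.329 over the large subunit genes, where the other HKO livers had 4.476 to 4.484, and 4.061 over the small subunit genes, where the others had 4.289 to 4.294. In WT liver 3 the mean over nuclear genes of oxidative phosphorylation was 5.727, where the others had 5.986 to 6.029. Mrps18a stood at 11.07 CPM in HKO liver 1 against 14.99 to 15.52 CPM, and at 17.15 CPM in WT liver 4 against 14.73 to 15.07 CPM. Mrps18b stood at 16.87 CPM in HKO liver 1 against 19.84 to 19.92 CPM, and at 17.88 CPM in WT liver 4 against 19.59 to 19.62 CPM. Mrps31 was 24.15 CPM in WT liver 2, where the other WT livers had 28.6 to 29.18 CPM, and Mrps36 was 11.49 CPM in WT liver 1, where the others had 9.101 to 9.494 CPM. Of these 9 values 4 belong to HKO liver 1.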

How the results depend on the processing

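The number of small subunit genes called was 0 under every alternative run. The number of large subunit genes called, 1 by edgeR's quasi-likelihood test, was 0 with limma-voom, 0 without the expression filter, 0 with the replicate block and 0 without both WT liver 3 and HKO liver 1, and leaving out each liver in turn gave 0 to 1. At an unadjusted p under 0.05 these alternatives had 4, 4, 1 and 4 of the 78 genes. The adjusted p of Mrpl16 was 0.0575 with limma-voom, 0.0683 without the filter and 0.124 with the replicate block, and over all 18 alternatives it ran from 0.0113 to 0.139. Over all genes, DESeq2 called 1014 in place of 624, and leaving out each liver in turn gave 212 to 598, the lowest without WT liver 2 (212), WT liver 1 (272) and HKO liver 4 (364). Total count scaling moved the median log2 fold change of the large subunit genes to -0.10 and the difference in their mean log2 CPM to -0.11, while the median of all genes moved to -0.08, and it lowered the share of called genes that were higher in HKO livers from 33.0% to 16.1%. The cause of these changes was not tested. The deviations of livers with the same replicate number had correlations of -0.06, 0.01, -0.08 and -0.15, and those with different numbers ran from -0.21 to 0.24. No sign of pairing by number was seen, but such correlations cannot show that the livers were unpaired. The replicate block brought the calls over all genes to 456. Among the named genes, estimates near 0 that were not called changed sign in 10 values on all livers and in 40 values with livers left out. Of 18 alternatives, the call was lost in 10 for Mrpl16 and in 12 for Tfb1m. With 4 livers per genotype, the 95% interval of a member reached a median of 0.24 log2 units to either side of its estimate. Annotated transcript lengths limit the comparison of levels between genes.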
